A study of Mus musculus with 12 samples.

Results

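The comparison described here is the anti-His pulldown of tagged Eif1ad3 set against the IgG pulldown, in RNA immunoprecipitation libraries from mouse 2-cell embryos. Its members are the genes at 1 CPM (the depth-scaled read count, in which each library has the same total) or more in at least 2 of the 4 pulldown libraries. That rule took 11232 of the 19390 genes in the immunoprecipitation table, and the 4 libraries are 4 of the 12 samples of the series. Zygotes were microinjected with in vitro transcribed mRNA for Eif1ad3 carrying a 6xHis tag, at 200 ng/uL, and grown to the 2-cell stage. Lysates were incubated with protein A/G beads carrying an anti-His antibody (His libraries, replicates A and B) or IgG (IgG libraries, replicates A and B), from 200 cells per replicate. All 4 libraries carry the genotype label Eif1ad3_OE, and the antibody on the beads is the labelled difference between the groups. The series' design text, however, speaks of both overexpressing and control cells, so whether the IgG lysates held the tagged protein cannot be told from these sources. The injected mRNA comes on top of the embryo's own Eif1ad3 transcripts. The labels do not say whether replicates A and B came from separate pools of embryos, so p-values here measure only the spread between these libraries, which may be technical.

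In RNA immunoprecipitation an antibody captures a protein together with RNA bound to it or to its partners, and an IgG pulldown measures RNA that stays on beads and antibody. Eif1ad3 belongs to a multicopy mouse gene family related in sequence to eIF1A, the initiation factor that sits in the decoding site of the small ribosomal subunit while a start codon is sought. At the 2-cell stage most of the mRNA laid down in the oocyte is being degraded and the embryo's own genome begins to be transcribed, so both maternal messages and transient families such as Zscan4, Obox, Usp17l and the Prame-like genes are present.

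The libraries held 8364126 (His A), 7917501 (His B), 5925209 (IgG A) and 4678563 (IgG B) reads, and 3 reads, the floor used here, were worth 0.359 to 0.641 CPM. All 6 embryo and oocyte markers checked (Dppa3, Gdf9, Zp3, Nlrp5, Zscan4d and Zfp352) had reads in both His libraries, summing to 7052 and 6870 CPM. In IgG they summed to 2587 and 2855 CPM, and Zfp352 was at 0 in IgG A. Markers of most other cell types were low. Of 10 cumulus and granulosa markers listed, 4 were at 0 in all 4 libraries, and the list summed to 11.5 and 28.7 CPM in His and to 0 in both IgG libraries. The 5 blood markers listed summed to 72.9 and 79.8 CPM in His, most of it Hba-a1, an alpha-globin gene, and to 0 in IgG. The 4 muscle markers listed summed to at most 15.4 CPM in His and 0 in IgG, the 6 brain markers to 17.8 and 15.4 CPM in His and at most 0.214 CPM in IgG, and the 4 liver markers to at most 1.01 CPM in any library. The 4 keratinocyte markers listed ran the other way, at 7.53 and 6.19 CPM in His and 144 and 313 CPM in IgG, where all of it was Cdsn, and the 4 matrix markers were at 3.59 and 3.66 CPM in His and 156 and 293 CPM in IgG, mostly Nid2. The part that RNA of other cells has in the results was not tested.

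The His libraries recovered a broad embryo transcriptome, and the IgG libraries recovered far fewer different genes. A read was found for 14244 and 14077 genes of the table in the His libraries and for 6816 and 7173 in the IgG libraries. Drawn down to a common 4678563 reads, the libraries would still hold 13989 and 13852 genes in His, and 6694 and 7173 in IgG. Among the members, 90 and 103 had no read in His A and His B, against 5005 (44.6%) in IgG A and 4783 (42.6%) in IgG B. The median level of the members that were detected was 20.2 and 20.6 CPM in His, and 22.3 and 40.4 CPM in IgG. The number of members at 100 CPM or more was 1832 and 1857 in His, 1891 in IgG A and 2209 in IgG B, so that IgG A was close to the His libraries in both measures and IgG B lay above them. In bulk libraries such as these, fewer molecules of a transcript recovered per cell and fewer cells contributing it cannot be told apart.

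Absence from IgG depended on the level of the transcript, but it reached genes that the His libraries held at high levels. Of the genes at 10 to 30 CPM in His A, 2.89% had no read in His B, 54.7% had none in IgG A and 51.9% had none in IgG B. At 100 to 300 CPM in His A the shares were 0% in His B, 13.2% in IgG A and 11.6% in IgG B. No gene at 1000 CPM or more in His A was without a read in any library. The IgG libraries missed genes of each other in the same way. Among the 1907 genes that reached 100 CPM in IgG A, 345 (18.1%) had no read in IgG B, and of 2226 genes at that level in IgG B, 436 (19.6%) had none in IgG A. No gene at 100 CPM or more in one His library was below 1 CPM in the other. In IgG, 479 genes were at 100 CPM or more in replicate A and below 1 CPM in replicate B, and 597 showed the reverse.

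**Figure D1:**
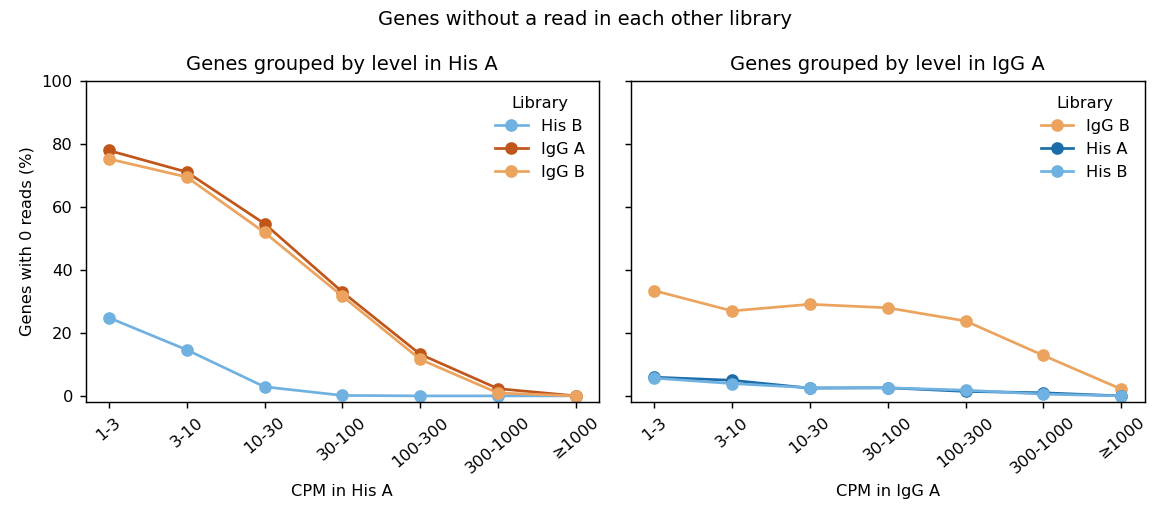
Share of genes with 0 reads (y axis, percent) in each other library, for genes grouped by their level in His A (left) or IgG A (right; x axis, CPM). IgG A and IgG B lie together on the left, at 54.7% and 51.9% for genes at 10 to 30 CPM, and on the right IgG B misses 23.8% of those with 100 to 300 CPM in IgG A while both His libraries stay close to 0.

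Single genes show what this looks like. Actb, the cytoskeletal beta-actin gene, was at 198 and 169 CPM in His, 0 in IgG A and 286 CPM in IgG B. Stx5a, a Golgi SNARE that helps vesicles fuse, was at 238 and 242 CPM in His, 0.169 CPM (1 read) in IgG A and 590 CPM in IgG B. Sebox, a maternal homeobox gene, was at 727 and 714 CPM in His, 776 CPM in IgG A and 0.427 CPM (2 reads) in IgG B. In all 3 genes the His replicates sat close together, and the IgG replicates lay on either side of them or level with and far below them. Their log2 fold changes of 3.44, 3.20 and 4.44 did not pass the test (limma, adjusted p = 0.539, 0.604 and 0.464). These values turn with a single library. Without IgG A the difference was -0.64 for Actb and -1.29 for Stx5a, and without IgG B it was -0.11 for Sebox.

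The test across all members was limma on log2(CPM + 1), with Benjamini-Hochberg adjustment over the 11232 genes and a threshold of 0.05. All fold changes are differences in log2(CPM + 1), His minus IgG, which understate the change of low genes. By this test 4111 genes (36.6%) were called, against 5011 (44.6%) at an unadjusted p under 0.05. Of the calls, 4008 (35.7% of all genes) were higher in His and 103 (0.917%) were lower, and the median fold change of all genes was 2.01. With the 3162 genes that had no read in either IgG library set to their lower bound, at the mean value of 3 reads in the IgG libraries, the median was 2.14. Both His libraries lay above both IgG libraries for 6071 genes (54.1%), and below both for 1018 (9.06%). The number of calls rested on single libraries and on the tool: without IgG A 7229 genes were called and without IgG B 7301, with the spread then taken from the His pair alone, and edgeR's quasi-likelihood test on the recovered reads called 0 genes at an adjusted p under 0.05, with 4592 (40.9%) at an unadjusted p under 0.05. DESeq2 on the same reads called 4766 (42.4%) higher and 747 (6.65%) lower. After quantile normalization limma called 0, with 2339 (20.8%) at an unadjusted p under 0.05, and the median of all genes was -0.08; it was 1.76 after rescaling the libraries to a common median.

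Most of the calls came from transcripts with little or no IgG signal. Of the 3162 genes without a read in either IgG library, 2693 (85.2%) were called higher, with a median of 9.28 CPM in His. These genes passed the level filter through the His libraries alone, so each has a fold change of at least 1 by that choice, and their share of calls and median describe the filter and are no result. Of the 3464 genes read in 1 IgG library only, 949 (27.4%) were called higher. Of the 4606 genes read in both, 366 (7.95%) were called higher and all 103 lower calls fell here. Medians of the fold change in these 3 sets were 3.22, 2.11 and 0.39. The group without IgG reads was mostly of low abundance: 1469 of its genes averaged 10 CPM or more in His and 32 averaged 100 CPM or more. Counted at 1 CPM, 4293 genes were present in both His libraries and neither IgG library, and 3644 of the 4008 higher calls were among them. No p is printed for a gene below 1 CPM in both libraries of 1 pulldown, because the other pulldown alone took it past the filter. The other 6878 genes were at 1 CPM or more in at least 1 library of each pulldown, called here genes seen in both pulldowns. Of these, 364 (5.29%) were called higher and 83 (1.21%) lower, with a median of 0.74, both His libraries above both IgG libraries for 25.9% and below both for 13.9%.

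**Figure D2:**
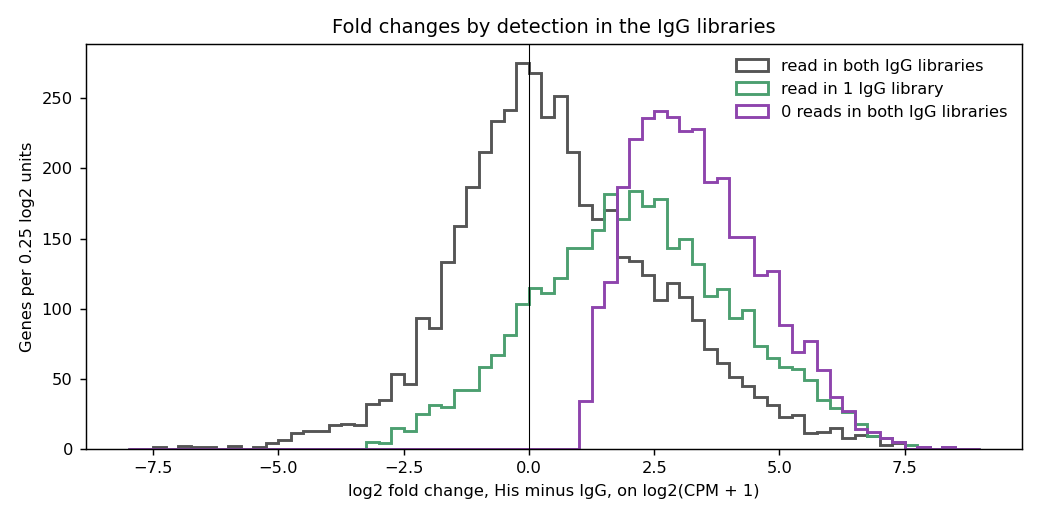
Histogram of the log2 fold change (x axis, His minus IgG on log2(CPM + 1)) in bins of 0.25, with the number of genes on the y axis, for genes with a read in both, 1 or neither IgG library. Genes read in both IgG libraries centre near 0 with a tail to the right (median 0.39), and genes without IgG reads lie to the right of 1 (median 3.22), where the level filter places them.

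Where a transcript was present in every library, the His and IgG levels in CPM were centred on each other. CPM gives each library the same total, so this does not show how much RNA each pulldown recovered. The 3263 genes at 1 CPM or more in all 4 libraries had a median fold change of -0.00, with both His libraries above both IgG libraries for 751 (23%) and below both for 909 (27.9%). In the test over all members 105 of these were higher and 72 lower. Tested alone, 0 of them were called by limma, with 538 (16.5%) at an unadjusted p under 0.05 and a smallest adjusted p of 0.170. The 4606 genes with a read in both IgG libraries, also tested alone, gave 0 calls by limma and 854 (18.5%) at an unadjusted p under 0.05. The IgG replicates differed more from each other than the His replicates. For the 3263 genes the median absolute log2 difference between replicates was 0.30 in His and 1.46 in IgG, and Pearson's correlation across genes, which are not independent replicates, was 0.959 in His and 0.488 in IgG.

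The most abundant transcripts were shared by both pulldowns. Zbed3, whose protein belongs to the subcortical maternal complex, was the most abundant gene in every library, at 33149 and 33269 CPM in His, and 18531 and 22801 CPM in IgG. Its His libraries lay above both IgG libraries (log2 fold change 0.69, SE 0.11, limma adjusted p = 0.0224). Tcl1, an Akt coactivator, was at 16519.6 and 16838 CPM in His and 15513 and 11843 CPM in IgG, and did not pass the test (0.30, limma adjusted p = 0.247). Tcl1b1, a Tcl1 relative, was lower in His, at 9705 and 9431 CPM against 11468 and 11568 CPM in IgG (-0.27, limma adjusted p = 0.00997), and turned to 0.09 after quantile normalization. Bcl2l10, an oocyte member of the Bcl2 family, was higher in His at 9290.1 and 9493 CPM against 8162 and 7716 CPM in IgG (0.24, limma adjusted p = 0.0154), and turned to -0.17 after rescaling the libraries to a common median. The 18S ribosomal RNA entry Rn18s, also among the 5 most abundant of both pulldowns, was at 9374 and 9113 CPM in His and 11905 and 15432 CPM in IgG and did not pass (-0.55, limma adjusted p = 0.0651). Rn18s-rs5 has the same reads in every library, so the pair is 1 measurement listed under 2 symbols. In all, 164 genes with at least 100 reads had the same reads in all 4 libraries as another symbol. Class counts include symbols with equal values, such as Ndufb4 and Ndufb4c, or Snord13 and LOC115490494. H3f3b, which encodes the replacement histone H3.3, was among the 5 genes closest to equality, at 1539 and 1597 CPM in His and 1716 and 1443 CPM in IgG. Mgst3, a microsomal glutathione transferase, was another, at 1007 and 940 CPM in His and 914 and 1047 CPM in IgG.

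Among genes present at 100 CPM or more in all 4 libraries, differences of several fold in the same direction in all library pairs also occurred. H1f8, the oocyte linker histone, was at 3870 and 3692 CPM in His and 365 and 133 CPM in IgG (log2 fold change 4.10, SE 0.57, limma adjusted p = 0.0153). Arf1, a small GTPase that recruits Golgi coats, was at 1191 and 1242 CPM in His and 177 and 130 CPM in IgG (3.0, limma adjusted p = 0.00997). In the other direction Rrp9, a protein of the U3 small nucleolar ribonucleoprotein, was at 607 and 502 CPM in His and 2254 and 2456 CPM in IgG (-2.09, limma adjusted p = 0.00997). These 3 genes were chosen after their values were seen. Of the 712 genes at that level, 175 (24.6%) had both His libraries above both IgG libraries and 246 (34.6%) had both below.

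The 8 genes with the largest His excess were well detected in both His libraries and nearly absent from IgG. Sec22a, a vesicle-trafficking protein of the endoplasmic reticulum, was at 327 and 296 CPM in His (2734 and 2344 reads) and had no read in either IgG library. Against the floor of 3 reads per IgG library its mean was at least 543-fold higher in His. Pdhx, a subunit of the pyruvate dehydrogenase complex, was at 194 and 252 CPM in His with no IgG read, at least 389-fold higher. Pigf, which acts in the synthesis of the GPI anchor, was at 356 and 362 CPM in His, with 2 reads in IgG A and 0 in IgG B. Rnf181, a ubiquitin ligase, was at 300.4 and 323 CPM in His with 2 reads in each IgG library. Eif2b1, the alpha subunit of the nucleotide exchange factor of eIF2, was at 241 and 252 CPM in His with 2 and 0 IgG reads. Spcs2, a signal peptidase subunit, was at 263 and 227 CPM in His with 3 and 0 IgG reads. Gm5698 and Eola1 completed the leading 8, with 218 to 251 CPM in His and at most 1 read in an IgG library. Each of the 8 had close His replicates and an IgG signal at or under the floor, and their log2 fold changes of 7.64 to 8.29 depend on the pseudocount.

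The genes with the largest IgG excess were scarce in His and had a clear signal in both IgG libraries. Cdsn, the corneodesmosin gene of the epidermis, was at 0.478 and 0 CPM in His and 144 and 313 CPM in IgG (log2 fold change -7.46, SE 0.87). Large2, a glycosyltransferase, was at 0.12 and 4.04 CPM in His and 228 and 335 CPM in IgG. Nid2, the basement membrane protein nidogen 2, was at 0 and 3.66 CPM in His and 156 and 244 CPM in IgG. Pex10, a peroxisome biogenesis factor, Pibf1, a centriolar satellite protein, and the small nucleolar RNA Snord118 were also among the leading 8. Each gene named here had both IgG libraries above both His libraries. No other defining keratinocyte marker had a read in either IgG library, and of the other matrix markers Col1a2 alone did, at 48.9 CPM in IgG B.

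**Figure D3:**
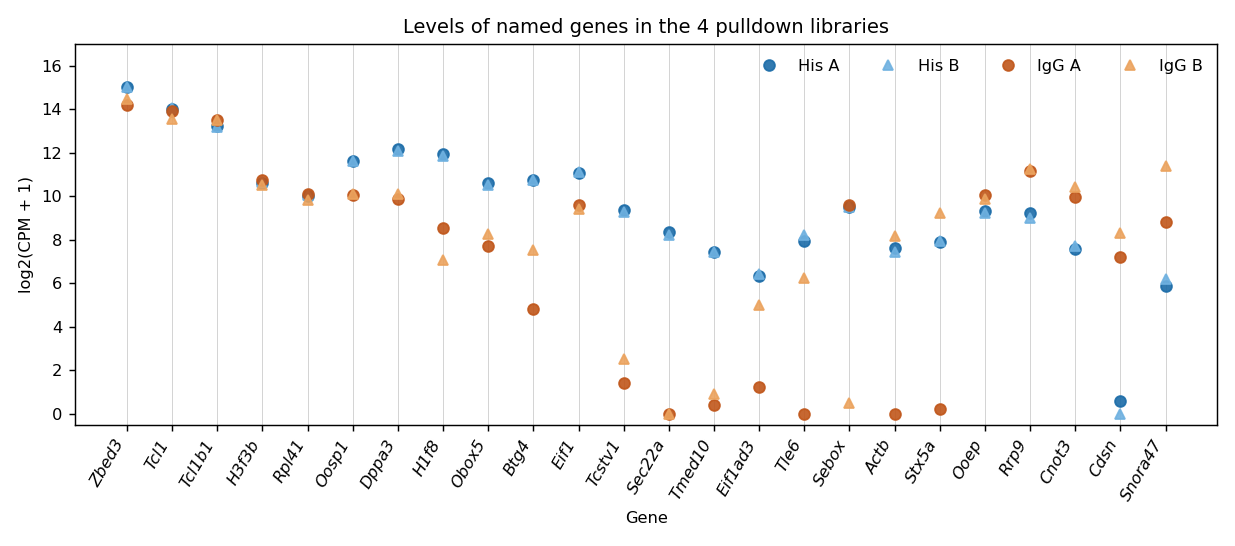
Levels of 24 named genes (y axis, log2(CPM + 1); 1 point per library, circles for replicate A and triangles for replicate B). His replicates overlap for most genes, while IgG replicates spread widely for Btg4, Eif1ad3, Tle6, Sebox, Actb and Stx5a, and Rrp9, Cnot3, Cdsn and Snora47 lie higher in both IgG libraries.

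Transcript classes were described by counts beside the 35.7% of all genes called higher, the 0.917% called lower, the 28.2% without an IgG read and the median of 2.01. Because the level filter itself sets most of the higher calls, each class is also given over its genes seen in both pulldowns, beside the 5.29% called higher there, and nothing is read from the share over all its members. Medians are of log2 fold changes and depend on the scaling: after quantile normalization those of the oxidative phosphorylation, RNA polymerase II and Mediator, small nucleolar RNA host, lncRNA, pseudogene and protein-coding classes were below 0 (-1.55 to -0.016), as was that of all genes. With DESeq2 the medians of the proteasome, splicing, and RNA polymerase II and Mediator lists were also below 0 (-0.42 to -0.003), as was the last with edgeR (-0.19). Cytosolic ribosomal protein genes, which encode the large and small ribosomal subunits, had the lowest median of the protein-coding lists other than the replication-dependent histones (-0.33 over 21 genes). Of 85 tested, 11 (12.9%) were higher, 1 was lower and 73 did not pass, with a median of -0.06, and 7 had no IgG read. Of the 75 seen in both pulldowns, 2 (2.67%) were higher and 1 lower. Of the same 75, 30 had both IgG libraries above both His libraries, where 13.9% of all such genes did. Both lay below for 8, where they did for 25.9% of all such genes. The class took 1.14% and 1.13% of the His libraries, and 1.70% and 1.31% of the IgG libraries. Rplp0, the acidic stalk protein P0, was at 3489 and 3424 CPM in His and 4755 and 1938 CPM in IgG, with IgG A above and IgG B below both His libraries. Rpl41 was at 1032 and 1060.2 CPM in His and 1088 and 912 CPM in IgG, overlapping. Rplp2, a second stalk protein, was lower in His, at 341 and 331 CPM against 820 and 637 CPM in IgG (log2 fold change -1.10, SE 0.25, limma adjusted p = 0.0462). Rpl7a was higher, at 84.2 and 68.6 CPM against 0.675 and 0.855 CPM, which is 4 reads in each IgG library. Rpl21 was at 36.6 and 39.2 CPM in His and had no IgG read. Over the 65 ribosomal protein genes at 1 CPM in all 4 libraries the median was -0.42, where that of all such genes was -0.00.

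Mitochondrial ribosomal protein genes, which encode the ribosome inside mitochondria, had 1 call, a lower one, among their genes seen in both pulldowns. Of 70 tested, 22 (31.4%) were higher and 1 was lower, 22 (31.4%, against 28.2% of all genes) had no IgG read, and the median was 1.99. Of the 43 seen in both pulldowns, 0 were higher and 1 was lower. Mrps14, of the small mitochondrial subunit, was at 137 and 160 CPM in His with 0.338 and 0.855 CPM in IgG (log2 fold change 6.56). Mrpl48, of the large subunit, was at 505 and 504 CPM in His and 1053 and 1057 CPM in IgG (-1.06, limma adjusted p = 0.0136). Mrpl37, also of the large subunit, was at 133 and 89.3 CPM in His and 339 and 330 CPM in IgG and did not pass (-1.61, limma adjusted p = 0.0956). Mrps7, of the small subunit, was at 201 and 199 CPM in His, 38.1 CPM in IgG A and 359.9 CPM in IgG B, overlapping. The 18 genes at 1 CPM in all 4 libraries had a median of -0.89.

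Translation initiation and elongation factor genes, the group in which an eIF1A relative acts, were mostly seen in both pulldowns. Of 68 tested, 14 (20.6%) were higher and 1 was lower, 6 had no IgG read, and the median was 1.33. Of the 57 seen in both pulldowns, 4 (7.02%) were higher and 1 was lower. Eif1, which encodes the start-codon fidelity factor that binds beside eIF1A, was at 2122 and 2244 CPM in His and 783 and 687 CPM in IgG (log2 fold change 1.57, SE 0.11, limma adjusted p = 0.00997), a gap wider than the spread of either pair. Eif5a, the translation elongation factor that carries hypusine, was at 3547 and 3570.3 CPM in His and 4768 and 3590.2 CPM in IgG and did not pass (limma adjusted p = 0.420). Eif6, an initiation factor that binds the large ribosomal subunit, was at 791 and 752 CPM in His and 1598 and 1048 CPM in IgG, also without passing (-0.75, limma adjusted p = 0.117). Eif2b5, the catalytic subunit of the eIF2 exchange factor, was the 1 gene lower in His, at 52.7 and 46.5 CPM against 572 and 395 CPM (-3.24, limma adjusted p = 0.0246), opposite to Eif2b1 of the same complex.

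Transcripts of the tagged gene were read in all 4 libraries, and all but 1 of its tested relatives had a read in at least 1 IgG library. Eif1ad3 was at 80.3 and 83.6 CPM in His, 1.35 CPM (8 reads) in IgG A and 30.8 CPM (144 reads) in IgG B. Both His libraries lay above both IgG libraries, and the difference did not pass the test (log2 fold change 3.26, SE 1.66, limma adjusted p = 0.252). The size rested on which IgG library was used: it was 1.38 without IgG A and 5.14 without IgG B. It passed the threshold in both of those fits, where the spread comes from the His pair alone and the lone IgG library is assumed to vary as little. Reads from injected and embryonic Eif1ad3 mRNA are not distinguished in these values, and reads of near-identical family copies may be divided among them. Of the 11 family members tested, 3 were higher, 0 lower and 1 without an IgG read, and the median was 2.67. Of the 9 seen in both pulldowns, 1 was higher. Those called were Eif1ax, the X-linked eIF1A gene, at 94.0 and 91.4 CPM in His with 0.844 and 0 CPM in IgG, Eif1ad19 at 17.8 and 28.7 CPM with 2.19 and 0.641 CPM, and Eif1ad2 at 4.06 and 1.89 CPM with no IgG read. The last 2 turned to -0.21 and -0.39 after quantile normalization. Eif1ad was at 89.4 and 99.5 CPM in His, 172 CPM in IgG A and 0.855 CPM in IgG B. Eif1ad7 was at 108 and 92.7 CPM in His, 4.05 CPM in IgG A and 98.7 CPM in IgG B. Eif1ad8 was at 55.6 and 57.8 CPM in His, 3.38 CPM in IgG A and 178 CPM in IgG B.

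Secretory pathway coat and SNARE genes move cargo between the endoplasmic reticulum and the Golgi. Their share called higher was close to the whole among genes seen in both pulldowns. Below 1 CPM in both IgG libraries were 29 of 64 members, against 4293 of 11232 genes (38.2%) in all. Such genes passed the level filter through His alone, so these shares describe the filter and are no result. Of the 64 tested, 29 (45.3%) were called higher and 0 lower, 19 had no IgG read, and the median was 2.65, or 2.90 with genes without IgG reads at their bound. Of the 35 seen in both pulldowns, 2 (5.71%) were higher, close to the 5.29% of all such genes. The 18 genes at 1 CPM in all 4 libraries had a median of 0.53. Both His libraries lay above both IgG libraries for 5 and below both for 4, against 23% and 27.9% of all such genes. Tmed10, a cargo receptor, was at 172 CPM in both His libraries and 0.338 and 0.855 CPM in IgG (log2 fold change 6.78). Vamp8, an endosomal SNARE, was at 108 and 103 CPM in His without an IgG read. Sec31a, of the outer COPII coat, was at 235 and 200 CPM in His and 20.9 and 19.5 CPM in IgG (3.36, limma adjusted p = 0.0455). Copz1, of the COPI coat, was the most abundant member and ran slightly the other way, at 1309.9 and 1194 CPM in His and 1548 and 1483 CPM in IgG, without passing the test (-0.28, limma adjusted p = 0.101). Sec13, of the outer COPII coat as well, was at 571 and 668 CPM in His, 1191 CPM in IgG A and 148 CPM in IgG B, overlapping. After quantile normalization the class median was 0.30 and that of all genes was -0.08.

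In the other housekeeping classes, most higher calls were likewise of genes below 1 CPM in both IgG libraries. Chaperones and heat shock genes had 25 of 70 (35.7%) higher with 19 lacking an IgG read, but 0 of the 41 seen in both pulldowns. Hsf1, the heat shock transcription factor, was at 685 and 651 CPM in His and 951 and 599 CPM in IgG, overlapping. Cct7, of the cytosolic chaperonin, was at 246 and 275 CPM in His and 702 and 286 CPM in IgG. Hsp90ab1, the constitutive Hsp90 beta, was at 380.2 and 382 CPM in His and 356 and 259.7 CPM in IgG. None of the 3, the most abundant of the class, passed the test (limma adjusted p = 0.742, 0.425 and 0.579). Oxidative phosphorylation genes had 29 of 82 (35.4%) higher with 22 lacking an IgG read, and 1 of the 53 seen in both pulldowns. Their 34 genes at 1 CPM in all 4 libraries had a median of -0.47. Both His libraries lay above both IgG libraries for 2 and below both for 13, against 23% and 27.9% of all such genes. The 3 most abundant did not pass the test. Atp5b, of the ATP synthase, was at 1155 and 1354 CPM in His and 2802 and 1546 CPM in IgG (-0.73, limma adjusted p = 0.220). Cox8a, of cytochrome c oxidase, was at 1073 and 989 CPM in His and 1252 and 1158 CPM in IgG (-0.23, limma adjusted p = 0.224). Cox6b2, of the same complex, was at 365 and 364 CPM in His and 325 and 928 CPM in IgG, overlapping.

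The proteasome had 9 of 35 (25.7%) higher, and 2 of the 27 seen in both pulldowns. Psmd4, its ubiquitin receptor, was at 459 and 416 CPM in His and 1051 and 563 CPM in IgG and did not pass (limma adjusted p = 0.229), and Psmd3 and Psmb3, the next in abundance, overlapped. Psmb2, a subunit of the proteolytic core, was lower in His at 241 and 206 CPM against 542 and 686 CPM (-1.45, limma adjusted p = 0.0415). Splicing factor genes had 15 of 75 (20%) higher, and 3 of the 61 seen in both pulldowns. Snrpg, of the Sm ring, was at 606 and 557 CPM in His and 377 and 575 CPM in IgG, overlapping. Snrpe, of the same ring, overlapped as well, at 427 and 460.5 CPM in His and 544 and 95.8 CPM in IgG. Hnrnpc was at 310.4 and 336 CPM in His and 219.9 and 205 CPM in IgG and did not pass (limma adjusted p = 0.328). RNA polymerase II and Mediator genes had 12 of 60 (20%) higher, and 3 of the 50 seen in both pulldowns. Med27, of Mediator, was at 2823 and 2613 CPM in His and 3066 and 2731 CPM in IgG, overlapping, as did Med28 at 1686 and 1734 CPM in His and 1810.1 and 1564 CPM in IgG. Polr2c, of the polymerase, was at 2244 and 2147 CPM in His and 1932 and 1163 CPM in IgG and did not pass (limma adjusted p = 0.263). Cell cycle genes had 15 of 70 (21.4%) higher, and 2 of the 55 seen in both pulldowns. Pttg1, the securin gene and the most abundant of these, was at 8924 and 9076 CPM in His and 6880 and 8485 CPM in IgG, which did not pass (limma adjusted p = 0.241). Ccnb1, the cyclin of M phase, was at 1904 and 1788 CPM in His and 446 and 1111 CPM in IgG, and Birc5, the survivin gene, at 1273 and 1330.5 CPM in His and 735 and 402 CPM in IgG, without passing (limma adjusted p = 0.138 and 0.0775). Cdc25b, the phosphatase that restarts oocyte meiosis, was at 368 and 352 CPM against 55.4 and 46.2 CPM (2.81, limma adjusted p = 0.0352).

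**Figure D4:**
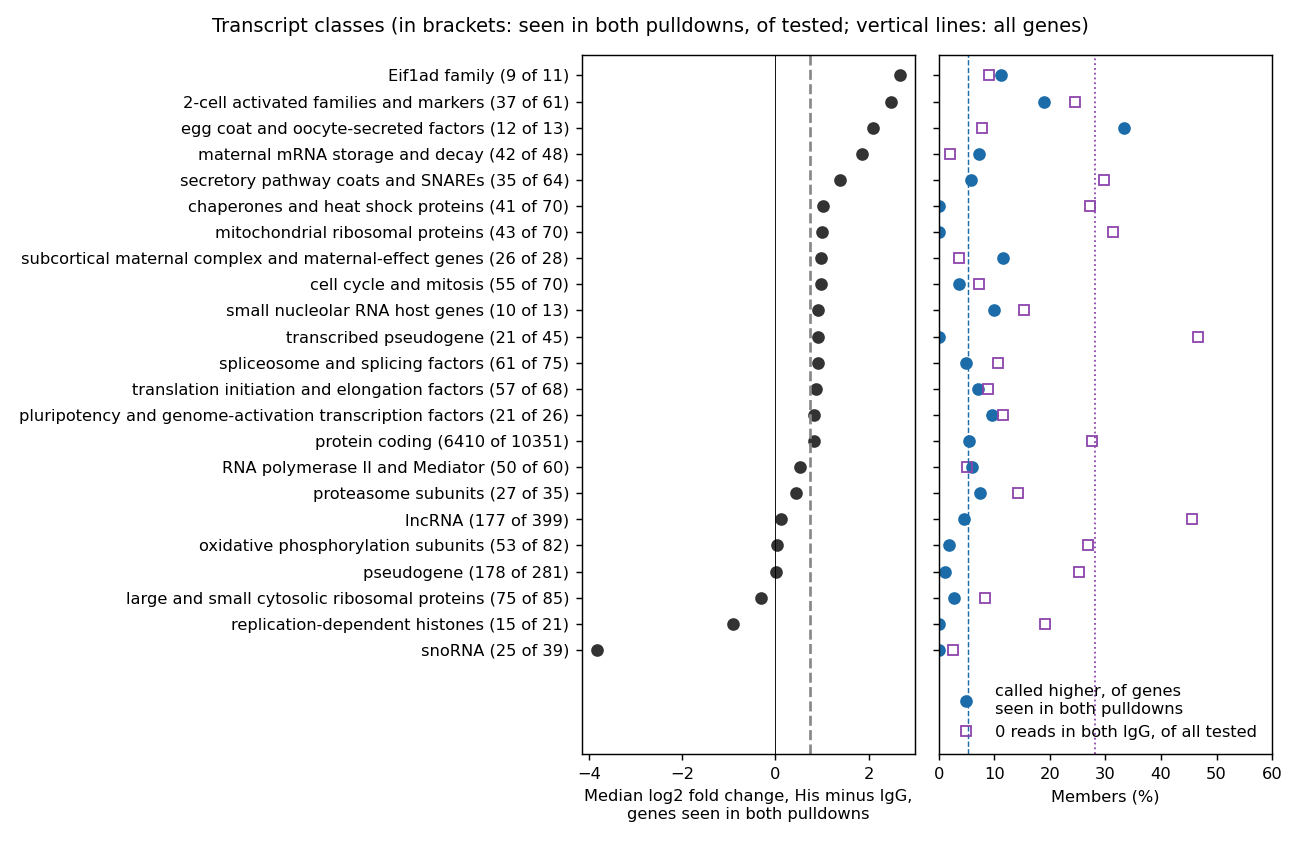
Left, median log2 fold change (x axis) over the genes seen in both pulldowns, for each transcript class with 10 or more genes tested. Right, the share of those genes called higher and the share of all tested members without a read in either IgG library (x axis, percent). Rows give genes seen in both pulldowns of those tested, and vertical lines are all genes. The Eif1ad and 2-cell families lie at 2.67 and 2.49, egg coat genes at 2.10 and maternal mRNA storage and decay genes at 1.86. Secretory genes lie at 1.38, against 0.74 for all such genes, and small nucleolar RNAs lie apart at -3.83.

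Maternal messages were mostly seen in both pulldowns. Genes without a read in either IgG library were 1 of 13 egg coat and oocyte-secreted genes, 1 of 28 subcortical maternal complex and maternal-effect genes and 1 of 48 genes of maternal mRNA storage and decay, of which 12 more had a read in 1 IgG library only. These classes were also more abundant, with medians of 158, 157 and 51.6 CPM in His against 20.2 CPM for all genes, and absence falls with level. Egg coat and oocyte-secreted genes had 5 of 13 (38.5%) higher, or 4 of the 12 seen in both pulldowns, and took 1.00% and 1.05% of the His libraries against 0.48% and 0.47% of the IgG libraries. Oosp1, an oocyte-secreted protein, was at 3167 and 3148 CPM in His and 1068 and 1109 CPM in IgG (log2 fold change 1.54, SE 0.05, limma adjusted p = 0.00997). Gdf9, the oocyte growth factor that acts on cumulus cells, was at 2281 and 2280.1 CPM in His and 1320 and 1538 CPM in IgG (0.68, limma adjusted p = 0.0164). Its partner Bmp15 was at 2323 and 2584 CPM in His and 305 and 869 CPM in IgG and did not pass (2.25, limma adjusted p = 0.0649). Bmp6, another ligand of the family, and Kit, the oocyte receptor for Kit ligand, were called higher, with at most 1.71 CPM in an IgG library. The egg coat genes themselves differed: Zp1 was at 92.2 and 133 CPM in His with no IgG read, and Zp3 was at 122 and 131 CPM in His and 328 and 208 CPM in IgG, which did not pass (limma adjusted p = 0.252).

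Subcortical maternal complex and maternal-effect genes had 4 of 28 (14.3%) higher and 1 lower, or 3 higher and 1 lower of the 26 seen in both pulldowns. They took 4.66% and 4.63% of the His libraries against 2.85% and 3.20% of the IgG libraries, and this excess lay in Zbed3 and Dppa3: the other 26 genes summed to 8868 and 8656 CPM in His, and to 8993 and 8106 CPM in IgG, overlapping. Dppa3, which protects the maternal genome from demethylation, was at 4547 and 4343 CPM in His and 937 and 1087 CPM in IgG (log2 fold change 2.14, SE 0.09, limma adjusted p = 0.00997). Ooep, a core protein of the complex, was lower in His at 629 and 602 CPM against 1066 and 925 CPM (-0.69, limma adjusted p = 0.0443). Tle6, another core protein, was at 243 and 296 CPM in His, 0 in IgG A and 75.5 CPM in IgG B, and did not pass (limma adjusted p = 0.256). Nlrp5 was at 73.2 and 62.1 CPM in His and 1.69 and 11.1 CPM in IgG, also without passing (limma adjusted p = 0.1). Uchl1, a ubiquitin hydrolase abundant in oocytes, was at 2573 and 2397 CPM in His and 2981 and 1819 CPM in IgG, overlapping.

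Genes of maternal mRNA storage and decay had 9 of 48 (18.8%) higher and 1 lower, or 3 higher and 1 lower of the 42 seen in both pulldowns. Btg4, the adaptor that brings the CCR4-NOT deadenylase to maternal mRNA, was at 1732 and 1720.1 CPM in His and 27.0 and 184 CPM in IgG, and missed the threshold (log2 fold change 4.58, SE 1.08, limma adjusted p = 0.0513). Cnot3, a subunit of that deadenylase, was lower in His at 190 and 210 CPM against 1005 and 1382 CPM (-2.56, limma adjusted p = 0.0105). Rbpms2, an RNA-binding protein, was at 1521 and 1588 CPM in His and 1109 and 1099.9 CPM in IgG (0.49, limma adjusted p = 0.0191). Dazl, a translational activator of the germ line, was at 23.1 and 36.2 CPM in His and 0.338 and 0.855 CPM in IgG (log2 fold change 4.25). Cpeb1, which controls cytoplasmic polyadenylation, was at 24.2 and 82.5 CPM in His and 0.338 and 0 CPM in IgG. Zar1, which binds and stores maternal mRNA, was at 868 and 801 CPM in His, 471 CPM in IgG A and 1001 CPM in IgG B, overlapping.

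Families and markers of 2-cell activation had more higher calls than the whole among genes seen in both pulldowns, as did other classes. The share was larger in egg coat and oocyte-secreted genes (4 of 12, 33.3%). It was also above the whole in subcortical maternal complex and maternal-effect genes (11.5%) and the Eif1ad family (11.1%), among others. The 2-cell list holds members also present in the oocyte, such as Obox5. With edgeR and after quantile normalization 0 of its genes were called, as of all genes. Of 61 tested, 27 (44.3%) were called higher and 0 lower, 15 had no IgG read, and the median was 2.88, or 3.20 with genes without IgG reads at their bound. Of the 37 seen in both pulldowns, 7 (18.9%, against 5.29% of all such genes) were called higher and 0 lower, with a median of 2.49. Of the same 37, 24 had both His libraries above both IgG libraries, where 25.9% of all such genes did. Both lay below for 2, where they did for 13.9% of all such genes. The families took 0.89% and 0.90% of the His libraries and 0.36% and 0.47% of the IgG libraries. Obox5, a homeobox gene of the oocyte and early embryo, was at 1553 and 1484 CPM in His and 210 and 308 CPM in IgG (log2 fold change 2.57, SE 0.27, limma adjusted p = 0.0101), the 1 Obox gene called higher of 6, all seen in both pulldowns. The other abundant members, B020004C17Rik at 1075 and 1095 CPM in His and 1095 and 1463 CPM in IgG, and AF067061 at 605 and 579 CPM in His and 609 and 804 CPM in IgG, lay the other way without passing (limma adjusted p = 0.474 and 0.532). Tcstv1, a 2-cell transcript, was at 664 and 621 CPM in His and 1.69 and 4.70 CPM in IgG (7.36, limma adjusted p = 0.0123). Of 27 Prame-like genes 9 had no IgG read, and of the 15 seen in both pulldowns 4 were called higher. Pramel25 was at 540 and 569 CPM in His and 190 and 195 CPM in IgG (1.52, limma adjusted p = 0.0340). Of 5 Usp17l deubiquitinase genes 2 had no IgG read and 2 were seen in both pulldowns, 1 of them called higher. Zscan4d, of the telomere-associated Zscan4 family, was at 13.2 and 16.9 CPM in His and 1.01 and 10.5 CPM in IgG and did not pass (limma adjusted p = 0.360). Of 5 Zscan4 genes 2 were seen in both pulldowns, and of 7 Tdpoz genes 3 were, with 0 called in either family. Near-identical copies make the division of reads within these families uncertain. At 100 to 1000 CPM in the control embryos of the series' knockdown experiment, 24.1% of 29 such genes had no IgG read, against 6.87% of all genes. Medians at that level were 62.7 and 73.2 CPM in His. Genes without an IgG read passed the level filter through His alone, so these shares describe the filter and are no result.

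Transcription factors of pluripotency and genome activation had 6 of 26 (23.1%) higher, or 2 of the 21 seen in both pulldowns, with Tfap2c, an AP-2 factor of early embryos, at 101 and 109 CPM in His and 1.69 and 0.427 CPM in IgG (5.76, limma adjusted p = 0.0144). Pou5f1, which encodes Oct4, was at 534 and 525 CPM in His and 368 and 239 CPM in IgG and did not pass (limma adjusted p = 0.176). Klf17, the most abundant of the list, was at 1740 and 1459.9 CPM in His and 1811 and 1779 CPM in IgG (-0.17, limma adjusted p = 0.363). Nobox, an oocyte homeobox factor, was at 522 and 517 CPM in His, 1464 CPM in IgG A and 348 CPM in IgG B, overlapping.

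By annotated type, long noncoding RNAs were less abundant than protein-coding genes. Genes without an IgG read passed the level filter through His alone, so their shares below describe the filter and are no result. Of 399 lncRNA genes tested, 193 (48.4%) were higher, 2 were lower and 182 (45.6%) had no IgG read, with a median of 6.97 CPM in His. Of 10351 protein-coding genes, 3676 (35.5%) were higher, 85 were lower and 2850 (27.5%) had no IgG read, with a median of 22.6 CPM in His. Among genes at 10 to 100 CPM in control embryos, 38.9% of 108 lncRNA genes and 21.4% of 4614 protein-coding genes had no IgG read, but the lncRNAs there were still lower in His, with medians of 16.7 against 31.0 CPM. At 100 to 1000 CPM the shares were 9.52% of 21 and 6.67% of 1770. Of the genes seen in both pulldowns, 8 of 177 lncRNAs (4.52%) and 353 of 6410 protein-coding genes (5.51%) were called higher. Abundant lncRNAs were in all libraries: C86187 was at 3245 and 3581 CPM in His and 1715 and 1607 CPM in IgG (1.04, limma adjusted p = 0.00997), and Gm1965 was at 1930 and 1716 CPM in His and 1105 and 1245 CPM in IgG (0.63, limma adjusted p = 0.0263). Of 13 host genes of small nucleolar RNAs 3 were higher, and 1 of the 10 seen in both pulldowns. Snhg15 was at 98.3 and 78.9 CPM in His and 245 and 187 CPM in IgG (-1.27, limma adjusted p = 0.210). Snhg20 was at 30.01 and 33.8 CPM in His and 121 and 157 CPM in IgG (-2.08, limma adjusted p = 0.137). Snhg8, the next in abundance, overlapped. Of 281 pseudogenes, 74 (26.3%) were higher and 3 lower, with a median of 0.65, and 2 of the 178 seen in both pulldowns were higher.

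Small nucleolar RNAs, which guide methylation and pseudouridylation of ribosomal RNA, and small Cajal body RNAs, which do so for spliceosomal RNA, had the lowest median of the classes with 10 or more genes tested. Of 47 tested, 42 had both IgG libraries above both His libraries, where 9.06% of all genes did. Of the 31 seen in both pulldowns, 27 had that order, where 13.9% of all such genes did. Of the same 31, 6 were called lower and 0 higher, against 1.21% and 5.29% of all such genes, with a median of -3.90. Of the 47, 10 were called lower, 1 was called higher and 36 did not pass, and the median was -3.63. The sum over the 47 genes was 189 and 203 CPM in His, 1690 CPM in IgG A and 9036 CPM in IgG B. IgG B exceeded IgG A for 45 of them, by a median factor of 5.08, so the IgG libraries differed strongly in amount while sharing the direction. In the fits without IgG A and without IgG B, 40 and 26 of the 47 were called lower; without His A or without His B, 0 were, and edgeR called 0 with 32 at an unadjusted p under 0.05. DESeq2 called 40 of them lower, and limma after rescaling to a common median called 24. The median stayed negative in all 17 alternatives, between -5.31 and -1.80.

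Snora47 was the most abundant of these, at 57.6 and 72.1 CPM in His, 447 CPM in IgG A and 2704 CPM in IgG B, and did not pass (log2 fold change -4.07, SE 1.06, limma adjusted p = 0.0648). It lies inside Zbed3 in the RefSeq annotation, and Zbed3 was higher in His. Snord118, the U8 RNA needed for processing of the large ribosomal subunit RNA, was at 2.63 and 1.14 CPM in His and 49.4 and 239 CPM in IgG (-5.30, limma adjusted p = 0.0443). Snord17 was at 0.956 and 2.90 CPM in His and 46.2 and 223 CPM in IgG (-5.22, limma adjusted p = 0.0477). The small Cajal body RNA Gm25395 was at 13.9 and 14.5 CPM in His and 228 and 555 CPM in IgG (-4.55, limma adjusted p = 0.0322). Snora41 had no His read and 5.06 and 11.5 CPM in IgG, while Eef1b2, the elongation factor gene that encloses it, was at 65.6 and 82.0 CPM in His and 0.675 and 1.71 CPM in IgG. Gm22723 was the exception called higher, at 4.30 and 4.29 CPM in His with no IgG read, a difference that was -0.15 after quantile normalization. Of the 47, 42 lie within 1 tested protein-coding gene. The 40 distinct enclosing genes had a median of 0.63, with 9 called higher and 0 lower, and the small RNA had the lower fold change of the pair in 40 of 42 cases. Whether these reads come from the mature small RNA, from intron RNA or from other RNA of the same positions was not tested.

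**Figure D5:**
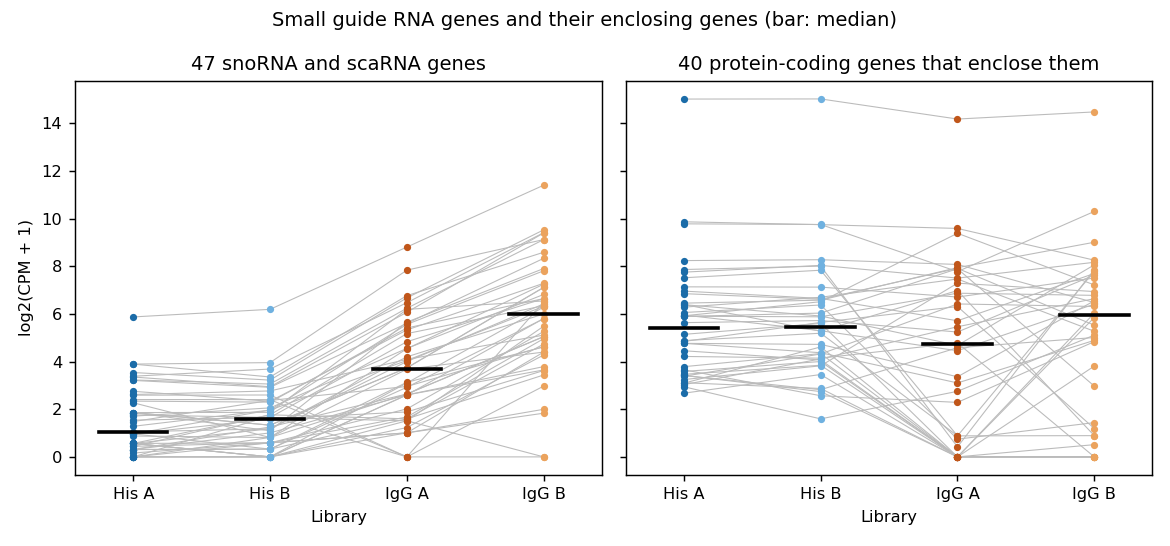
Levels (y axis, log2(CPM + 1)) of 47 small nucleolar and small Cajal body RNA genes (left) and of the 40 protein-coding genes that enclose them (right) in the 4 libraries (x axis); grey lines join 1 gene, black bars are medians. The small RNAs step up from His to IgG A and again to IgG B, and the enclosing genes do not share that step.

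A few microRNA loci passed the level filter, and their mature sequences are shown because 3 of them share bases. The sequences are RefSeq's on GRCm38.p6, the seed (bases 2 to 8) is in capitals, and all 7 loci matched the table. The libraries hold long cDNA, so the reads are of the loci or of transcripts across them, not of mature microRNAs.
mmu-miR-3473b, chr10:41670774-41670793, plus strand: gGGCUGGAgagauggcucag
mmu-miR-3473a, chrX:162874920-162874937, minus strand: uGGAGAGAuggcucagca
mmu-miR-5128, chr2:37688212-37688234, minus strand: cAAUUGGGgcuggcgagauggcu
The first pair shares a run of 16 bases, and each shares 9 bases with the third, but no seed is common to any of the 9 mature sequences of the 7 loci. Mir3473b had no read in His and was at 5.91 and 25.4 CPM in IgG (log2 fold change -3.76, SE 0.80). Mir3473a was at 0.359 and 0.379 CPM in His and 1.86 and 10.5 CPM in IgG (-2.06). Mir5128 was at 2.75 and 3.28 CPM in His and 5.91 and 10.9 CPM in IgG (-1.18, limma adjusted p = 0.198). In each of the 3, both IgG libraries lay above both His libraries. Of the 7 loci 3 were seen in both pulldowns, and 0 of these were called. The 3 called loci, Mir3473b and Mir7215 lower and Mir6392 higher, passed the filter through 1 pulldown alone. Mir6392 was at 1.79 and 3.79 CPM in His without an IgG read, a difference that was -0.41 after quantile normalization.

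Immunoglobulin gene segments were also read, in opposite directions. Ighg2b, a heavy-chain constant region, was at 58.1 and 88.0 CPM in His and 303 and 268 CPM in IgG and did not pass (log2 fold change -1.98, limma adjusted p = 0.0865). Ighg3, another heavy-chain constant region, was at 44.0 and 76.5 CPM in His with no IgG read, at least 105-fold higher. Iglv1, a light-chain variable segment, was at 44.0 and 22.1 CPM in His with no IgG read.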

How the data were processed

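Deposited values are CPM per gene, made by the authors; the submitters' processing notes name Trim Galore 0.6.7, FastQC, HISAT2 2.2.1, featureCounts 2.0.1, edgeR and the build GRCm39. Per the labels' protocols, cDNA came from a Smart-seq2 kit, Nextera XT prepared it for sequencing, and reads were 150 bp, paired. Without molecular identifiers, floors cover counting error only. In every pulldown library 100% of the CPM values were whole multiples of 1 read (tolerance 1e-06), so reads were recovered. Replicate libraries were not copies: over genes with at least 20 reads in a pair, the chi-square per gene averaged 33.7 between the His and 551 between the IgG libraries. Genes at 1 CPM or more in 2 of 4 libraries were tested with limma 3.58.1 (lmFit, eBayes with trend, two-sided) on log2(CPM + 1) in R 4.3.3. Count tests of the recovered reads (edgeR 4.0.16, DESeq2 1.42.0), other pseudocounts, filters and scalings, a replicate block and leaving out each library were alternatives.

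The members and gene lists were chosen with earlier results of these data known. Genes named are the 8 largest changes each way (mean of at least 10 CPM, no overlap), the 5 most abundant per pulldown, the 5 most alike, the 3 most abundant of each class, and a panel of oocyte, 2-cell and housekeeping genes; H1f8, Arf1, Rrp9 and every other gene named that none of these covers were chosen after their values were seen. The subset of genes seen in both pulldowns was also chosen then. Some genes met by the rule are not reported here. Gene types, enclosing genes and microRNA sequences are from RefSeq on GRCm38.p6, which matched 11147 members. Control-embryo CPM from the separately normalized knockdown table was used only to bin genes by level. The immunoprecipitation table's 4 other value columns were not used here, because their names do not decide a sample.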

Additional observations from a re-analysis of the deposited data

How the results depend on the processing

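The counts of 4111 called genes, 4008 higher and 103 lower, became 0, 0 and 0 with 4 alternatives: genes at 1 CPM in all 4 libraries only, genes with a read in both IgG libraries (chosen after the data were seen), quantile normalization, and edgeR. Their numbers at an unadjusted p under 0.05 were 538, 854, 2339 and 4592. A mean of at least 5 CPM gave 2356, 2295 and 61. Lower calls were 51 without a filter and 747 with DESeq2. Leaving out 1 library gave 3946 to 7301 calls, 3934 to 5729 higher and 12 to 1928 lower; the lone library is then assumed to vary like the others, and the larger counts came without IgG A or IgG B. The median of 2.01 was 0.39 for genes read in both IgG libraries, -0.004 for genes in all 4, 1.24 without a filter, 1.76 at a mean of 5 CPM and after median rescaling, 1.56 with edgeR, 1.30 with DESeq2, -0.0806 after quantile normalization, 3.66 and 0.94 with pseudocounts of 0.1 and 5, and 1.95 to 2.36 without 1 library. Fewer genes or libraries entered the restricted fits, and no cause was tested.

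The replicate letter as a block, although same-letter libraries did not deviate together (correlation -0.0138) and so are not pairs, gave 3894 calls, 3854 higher and 40 lower. With the replicate block and median rescaling, 28 were lower and the median was 1.76.

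Of 123 named genes, 64 were called, and 7 of these and 28 of the others changed sign or became 0 in some alternative. Without IgG A or IgG B, 34 and 33 named genes that had not been called passed the threshold, and without His A or His B, 33 and 34 that had been called no longer did. Quantile normalization gave 0.0 for Zbed3, as it must for the top gene of every library, 0.0895 for Tcl1b1, 0.14 for Mgst3, -1.46 for Zscan4d, -0.002 for Eif1ad8, -0.41 for Mir6392, -0.15 for Gm22723, -0.21 for Eif1ad19, -0.39 for Eif1ad2, 0.0389 for AF067061, 0.0629 for Hsf1 and -0.10 for Med28. DESeq2 gave -0.082 for Tcl1, -0.10 for Bcl2l10, -0.40 for Stx5a, -0.0764 for Zar1, -0.79 for Eif1ad8, -0.38 for Rplp0, -0.29 for Rpl41, -0.0879 for Pttg1, -0.42 for Eif1ad, -0.0631 for Hsp90ab1, -0.34 for Med28, -0.14 for Mrps7, -0.59 for Psmd3, -0.61 for Sec13, -0.0126 for Snrpe, -0.0027 for Snrpg and -0.34 for Uchl1. edgeR gave -0.20 for Stx5a, -0.58 for Eif1ad8, -0.11 for Rplp0, -0.0333 for Rpl41, -0.12 for Eif1ad, -0.0767 for Med28, -0.31 for Psmd3, -0.32 for Sec13 and -0.0742 for Uchl1. Median rescaling, with or without the block, gave -0.12 for Tcl1, -0.17 for Bcl2l10, -0.13 for Zar1, -0.23 for Rplp0, -0.34 for Rpl41, -0.18 for Pttg1, -0.0884 for Hsp90ab1, -0.39 for Med28, -0.29 for Psmd3, -0.095 for Snrpg and -0.32 for Uchl1. Leaving out 1 library gave -0.13 to 0.12 for H3f3b, -0.11 to 0.0895 for Mgst3, -0.11 to 8.98 for Sebox, -1.29 to 7.69 for Stx5a, -0.26 to 0.82 for Zar1, -1.63 to 3.72 for Eif1ad8, -0.46 to 0.83 for Rplp0, -0.0566 to 0.20 for Rpl41, -0.64 to 7.53 for Actb, -0.86 to 5.68 for Eif1ad, -1.35 to 0.17 for Cox6b2, -5.0004 to 0.64 for Col1a2, -0.51 to 0.16 for Hsf1, -0.0823 to 0.13 for Med28, -0.84 to 2.36 for Mrps7, -1.49 to 0.57 for Nobox, -1.28 to 0.20 for Psmb3, -0.76 to 1.00 for Psmd3, -0.95 to 2.05 for Sec13, -3.76 to 2.38 for Snhg8, -0.29 to 2.1999 for Snrpe and -0.26 to 0.45 for Uchl1. No cause of these turns was tested.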
